A study of Mus musculus with 6 samples.

Results

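The proteasome genes were taken as the 47 of 21878 measured genes whose symbol begins with Psm, a letter from a to g and a number, without the immunoproteasome genes Psmb8, Psmb9 and Psmb10. They were compared in bulk RNA sequencing of prefrontal cortex, with 3 mice in the Gls1_CamkIIaCre group and 3 in the control group. Gls1_CamkIIaCre mice carried the CamKIIα-Cre transgene and a single floxed allele, the other copy of that gene being wild type. Controls were their littermates with the same transgene and no floxed allele. Cre from the CamKIIα promoter acts in excitatory neurons of the forebrain, and the series text calls the mutants mosaic, so an unsorted piece of cortex held cells with and without the deletion. Of the 47 genes, 45 had enough counts to be tested. Psma8, a subunit of the testis, had 12, 3 and 5 counts in Gls1_CamkIIaCre libraries and 9, 6 and 7 in control libraries. Psmb11, a subunit of the thymus, had 4, 3 and 3 counts in Gls1_CamkIIaCre libraries and 5, 3 and 6 in control libraries, and neither gene was tested. The deposited annotation put 39 of the 47 genes in its Proteasome pathway. The other 8 were the assembly chaperones Psmd5, Psmd9, Psmd10 and Psmg1 to Psmg4, and Psmc3ip. Psmc3ip fits the name rule only: it encodes a protein of meiotic recombination and is no proteasome subunit. The rule also misses the lid subunit Shfm1 and the ubiquitin receptor Adrm1. Both are described with the related genes and are left out of the role groups and sums below.

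The proteasome is the main protease of the cytosol and nucleus and takes apart proteins tagged with chains of ubiquitin. Its barrel-shaped core has rings of alpha subunits at the ends, which gate the entrance, and rings of beta subunits in the middle, which hold the cutting sites facing an inner chamber. A regulatory particle caps the core. Its lid and base bind the ubiquitin chain and remove it, and its ring of ATPases unfolds the protein and feeds it into the core. In neurons the proteasome takes part in the turnover of synaptic proteins.

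Of the 45 tested proteasome genes 4 fell in Gls1_CamkIIaCre cortex and 0 rose, at a Benjamini-Hochberg adjusted p under 0.05 in edgeR's quasi-likelihood test over 14440 genes. The 4 were Psmb5, Psmb7 and Psmb4 of the beta ring and Psmd8 of the lid, each lower by 10.1% to 11.6%. They are 8.89% of the tested proteasome genes, against 8.24% of all tested genes called in either direction, 4.29% that fell and 3.95% that rose. At an unadjusted p under 0.05, 8 proteasome genes were lower and 1 was higher. Those 9 of 45 compare with 22.4% of all tested genes in either direction. The share of all genes by direction was not taken at this p, so the split of 8 and 1 has no such comparison. By DESeq2 only Psmd8 was called, where 3.26% of all genes fell, and by limma voom Psmb5, Psmb7 and Psmd8 were, where 3.73% of all genes fell. No proteasome gene was called higher by either tool. Fold changes of the 45 genes lay between -0.25 and 0.12 on the log2 scale, with a median of -0.043 against -0.0024 over all tested genes. Of the 45, 28 were below 0 and 17 above, against 7333 below and 7107 above among all 14440 tested genes. In RefSeq's GRCm38.p6, Psmb5 spans 54614120 to 54617995 on chromosome 14, Psmb7 38588046 to 38643952 on chromosome 2, Psmb4 94884324 to 94886958 on chromosome 3 and Psmd8 29174187 to 29180673 on chromosome 7. No other protein-coding gene overlaps these 4. RefSeq lists pseudogenes of Psmb5, Psmb6, Psmb7 and Psma5, and reads shared with them depend on how the counting treated them.

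**Figure D1:**
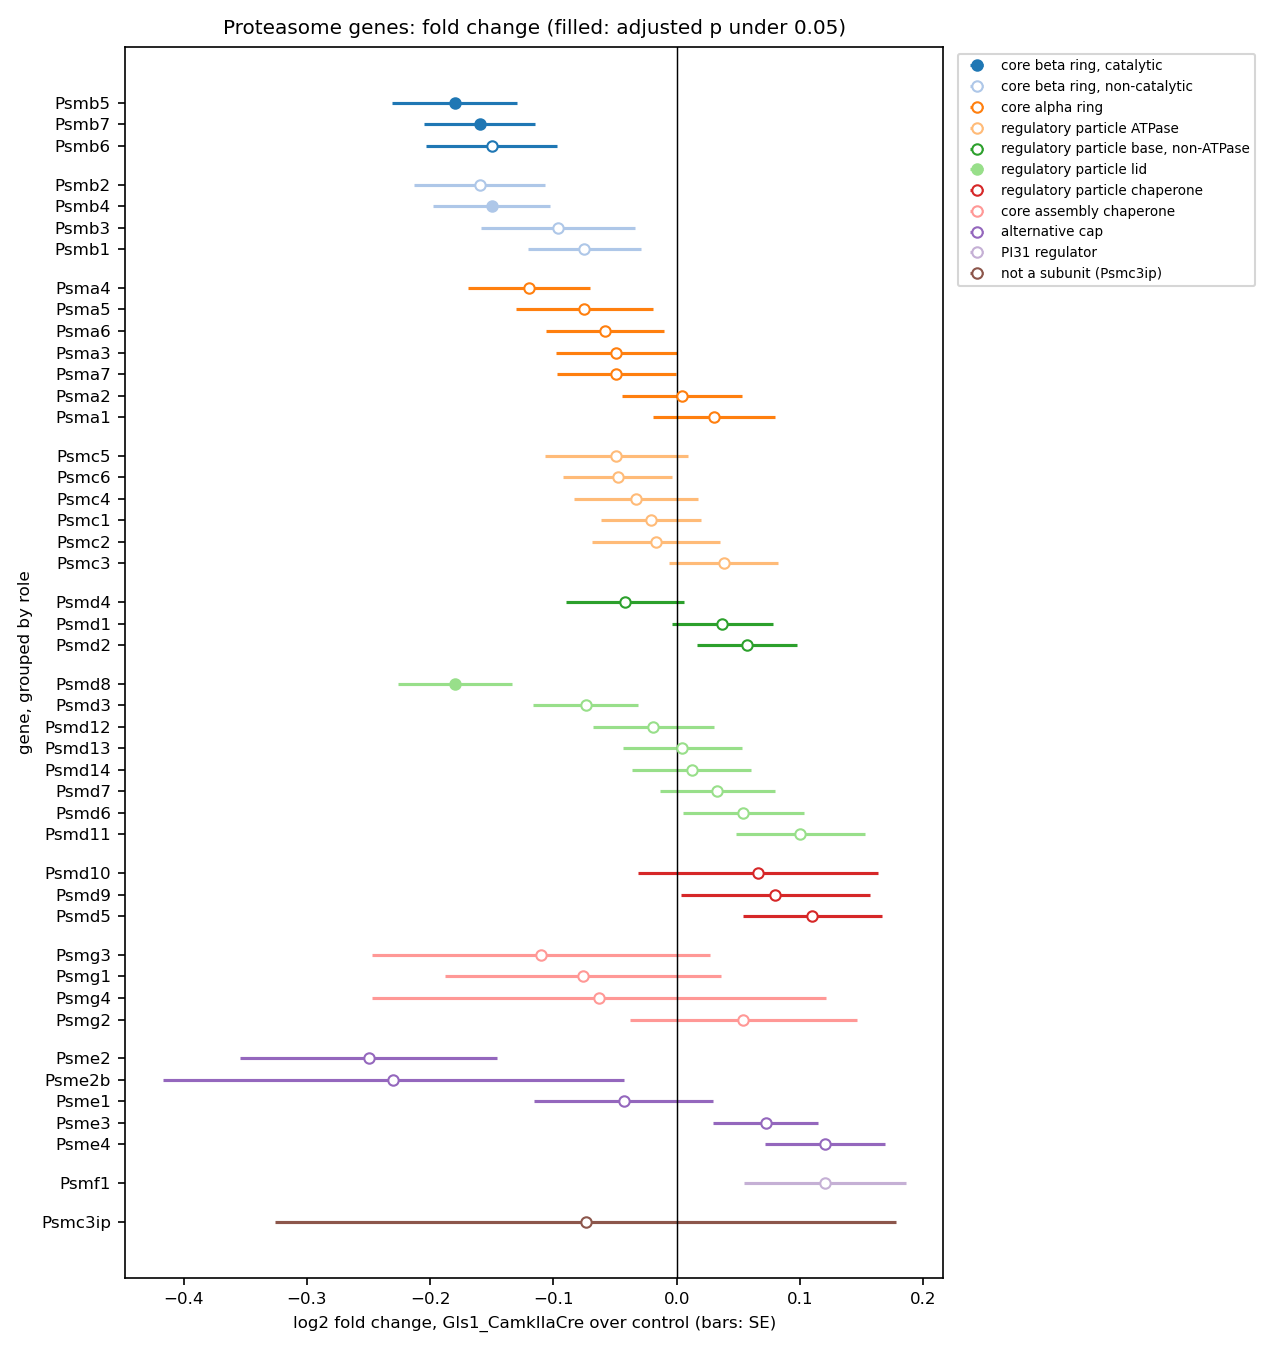
The log2 fold change, Gls1_CamkIIaCre over control, is plotted for the 45 tested proteasome genes, grouped by role, with bars for the standard error and filled points for an edgeR adjusted p under 0.05. All 7 beta ring genes sit left of 0, and the 4 filled points are Psmb5, Psmb7, Psmb4 and Psmd8.

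Promoters are shown for 3 of the proteasome genes that fell and for Pomp, the core maturation factor described with the related genes, as 250 bases before the annotated start (RefSeq, GRCm38.p6), read 5′ to 3′ on the gene's strand. Psmb7 had no entry. Capitals mark matches to TGACNNNGC (the core of the antioxidant response element, which Nfe2l1 and Nfe2l2 bind), CCGGAA (the core of ETS factor sites), CCAAT and GGGCGG (the GC box), each searched on both strands. The Psmb5 window is chr14:54617996-54618245 (minus strand), with TGACNNNGC at -47 to -39. The Psmb4 window is chr3:94886959-94887208 (minus strand), with none of the 4 motifs. The Psmd8 window is chr7:29180674-29180923 (minus strand), with GGGCGG at -59 to -54. The Pomp window is chr5:147860378-147860627 (plus strand), with CCGGAA at -62 to -57, -48 to -43 (reverse strand) and -11 to -6, and GGGCGG at -36 to -31.
Psmb5: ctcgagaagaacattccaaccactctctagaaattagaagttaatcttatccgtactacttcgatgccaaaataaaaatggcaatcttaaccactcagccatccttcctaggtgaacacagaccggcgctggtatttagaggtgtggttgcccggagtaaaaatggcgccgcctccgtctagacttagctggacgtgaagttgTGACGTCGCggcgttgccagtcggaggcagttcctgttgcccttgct
Psmb4: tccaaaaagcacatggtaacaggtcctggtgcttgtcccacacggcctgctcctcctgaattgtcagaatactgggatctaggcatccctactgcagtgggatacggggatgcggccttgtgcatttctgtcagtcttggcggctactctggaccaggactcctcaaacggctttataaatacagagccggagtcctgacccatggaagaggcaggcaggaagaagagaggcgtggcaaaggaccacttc
Psmd8: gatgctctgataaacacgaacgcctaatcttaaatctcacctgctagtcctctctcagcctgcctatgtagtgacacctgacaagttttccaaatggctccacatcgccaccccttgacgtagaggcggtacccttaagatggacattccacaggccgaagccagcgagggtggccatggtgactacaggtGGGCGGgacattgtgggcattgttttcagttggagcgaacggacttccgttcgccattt
Pomp: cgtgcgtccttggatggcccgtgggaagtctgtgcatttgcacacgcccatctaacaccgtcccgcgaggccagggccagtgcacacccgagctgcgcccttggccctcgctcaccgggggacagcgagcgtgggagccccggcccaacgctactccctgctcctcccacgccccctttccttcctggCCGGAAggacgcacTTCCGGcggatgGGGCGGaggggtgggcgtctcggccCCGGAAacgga
Over the 39 proteasome genes with a window, TGACNNNGC was in 5 (12.8%), against 10.2% of all 32851 promoter windows. CCGGAA was in 18 (46.2%), against 12% of all windows, and GGGCGG in 21 (53.8%), against 32.7%. CCAAT was in 14 (35.9%), against 33.8%. Some genes have several windows in the full set, and these shares are descriptions of letters in a window.

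Psmb5 encodes the beta subunit with chymotrypsin-like activity, the site blocked by bortezomib. It had 58.6, 61.0 and 61.3 CPM in Gls1_CamkIIaCre libraries, against 70.4, 68.7 and 65.4 CPM in control libraries (counts scaled to library size, TMM-normalised). Every Gls1_CamkIIaCre library was below every control library. Means were 60.3 ± 1.5 CPM in Gls1_CamkIIaCre and 68.2 ± 2.55 CPM in control (SD, n = 3 each). Psmb5 fell by 0.18 on the log2 scale (SE 0.0506, 95% interval -0.28 to -0.07, edgeR adjusted p = 0.0346). Psmb7 encodes the subunit with trypsin-like activity and had 103, 101 and 106 CPM in Gls1_CamkIIaCre libraries, against 114, 121 and 113 CPM in control libraries. The groups did not overlap, and Psmb7 fell by 0.16 on the log2 scale (SE 0.0452, edgeR adjusted p = 0.0303). Psmb6, whose product carries the caspase-like activity, had 63.9, 60.4 and 67.0 CPM in Gls1_CamkIIaCre libraries, against 73.0, 72.3 and 67.4 CPM in control libraries. The groups touched without overlapping, at 67.0 and 67.4 CPM. Its log2 fold change of -0.15 was of like size but did not pass (SE 0.0531, 95% interval -0.26 to -0.04, edgeR adjusted p = 0.0827). Together the 3 catalytic genes summed to 226, 223 and 235 CPM in Gls1_CamkIIaCre libraries and to 257, 262 and 245 CPM in control libraries.

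The other 4 genes of the beta ring encode subunits without a cutting site. Psmb4 had 97.8, 87.6 and 92.1 CPM in Gls1_CamkIIaCre libraries, against 105, 102 and 102 CPM in control libraries. Its Gls1_CamkIIaCre libraries were all lower and more spread out, at 92.5 ± 5.12 CPM against 103 ± 1.64 CPM in control (SD, n = 3 each). Psmb4 fell by 0.15 on the log2 scale, just inside the threshold (SE 0.0475, edgeR adjusted p = 0.0491). Psmb2 had 45.4, 48.5 and 47.8 CPM in Gls1_CamkIIaCre libraries, against 52.0, 53.2 and 53.4 CPM in control libraries. These groups did not overlap either, and the log2 fold change of -0.16 lay just outside the threshold (SE 0.0535, edgeR adjusted p = 0.0675). Psmb1 and Psmb3 had log2 fold changes of -0.075 and -0.096 with overlapping groups (edgeR adjusted p = 0.362 and 0.391). The 7 beta ring genes summed to 513, 494 and 527 CPM in Gls1_CamkIIaCre libraries, against 566, 568 and 555 CPM in control libraries. All 7 had a negative log2 fold change, with a median of -0.15.

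**Figure D2:**
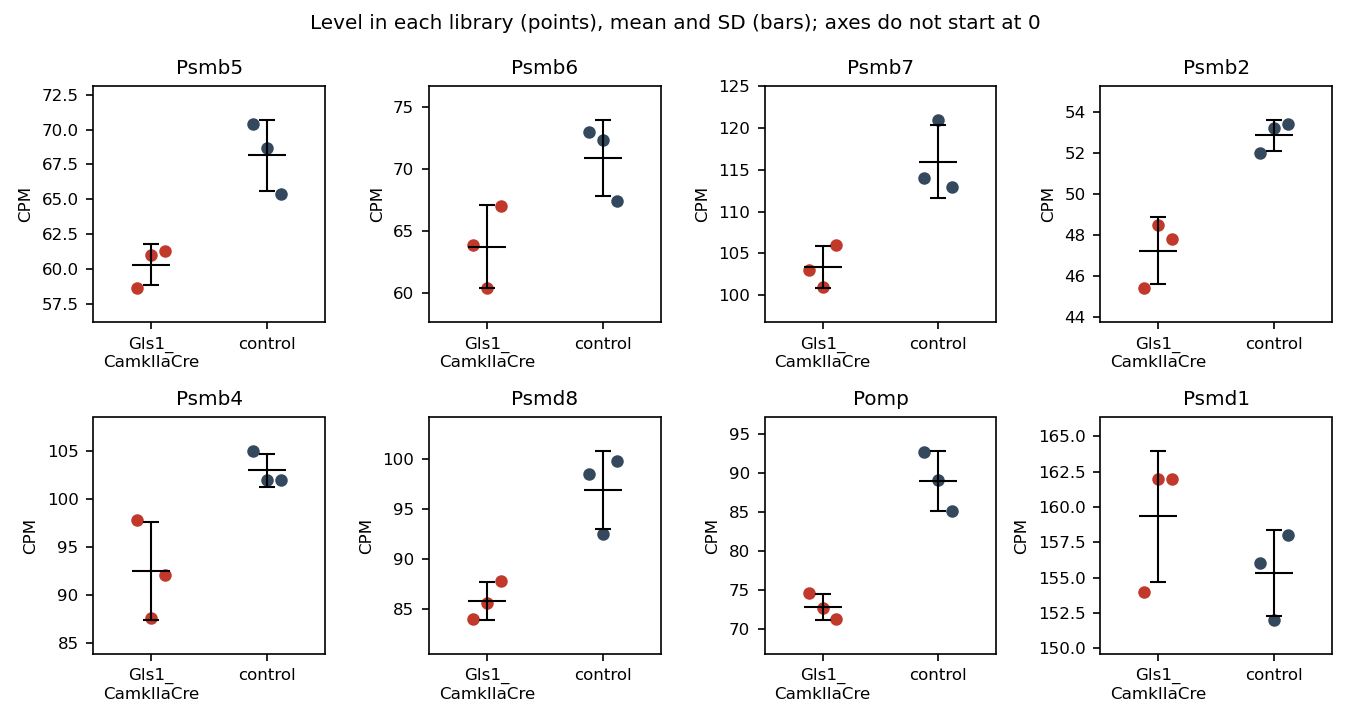
CPM of 8 genes is plotted in each library, Gls1_CamkIIaCre left of control, with the mean and SD of 3 libraries; the vertical axes do not start at 0. In 7 panels, from Psmb5 to the core maturation factor Pomp, no Gls1_CamkIIaCre library reaches a control library, while the base subunit Psmd1 overlaps, at 154 to 162 CPM against 152 to 158 CPM.

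The alpha ring genes differed less. None of the 7 was called by edgeR, DESeq2 or limma voom, and 1, Psma4, had an unadjusted edgeR p under 0.05. Psma4 had 82.3, 80.4 and 74.6 CPM in Gls1_CamkIIaCre libraries, against 88.6, 83.9 and 85.3 CPM in control libraries. The groups did not overlap, with a log2 fold change of -0.12 (SE 0.0493, edgeR adjusted p = 0.144). Psma5 had 47.4, 44.7 and 48.9 CPM in Gls1_CamkIIaCre libraries, against 48.1, 50.4 and 50.2 CPM in control libraries, and its groups overlapped (log2 fold change -0.075, edgeR adjusted p = 0.465). Psma3, Psma6 and Psma7 had log2 fold changes between -0.058 and -0.049, and Psma1 and Psma2 were at 0.030 and 0.0042. The alpha ring summed to 509, 501 and 499 CPM in Gls1_CamkIIaCre libraries and 521, 522 and 513 CPM in control libraries. Its median log2 fold change was -0.049, against -0.15 for the beta ring, and the difference between the rings was not tested.

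None of the 6 ATPase genes of the regulatory particle was called by any of the 3 tools, and none had an unadjusted edgeR p under 0.05. Psmc6 had 88.6, 84.6 and 86.8 CPM in Gls1_CamkIIaCre libraries, against 90.1, 89.5 and 89.3 CPM in control libraries. The groups stood apart by less than 1 CPM, with a log2 fold change of -0.048 (SE 0.0445, edgeR adjusted p = 0.58). Psmc3 had 131, 130 and 140 CPM in Gls1_CamkIIaCre libraries, against 133, 126 and 132 CPM in control libraries, with overlap and a log2 fold change of 0.038 (edgeR adjusted p = 0.675). The other 4 ATPases, Psmc1, Psmc2, Psmc4 and Psmc5, were between -0.049 and -0.017.

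The base subunits outside the ATPase ring, Psmd1, Psmd2 and Psmd4, were not called by any of the 3 tools either, and none had an unadjusted edgeR p under 0.05. Psmd2, a large scaffold that docks ubiquitin carriers, had the highest level per transcript length of the 3, at 54.6 FPKM (FPKM scales fragments to gene length and library depth). Its libraries had 197, 203 and 210 CPM in Gls1_CamkIIaCre, against 193, 193 and 201 CPM in control. These overlapped, with a log2 fold change of 0.057 (SE 0.0404, edgeR adjusted p = 0.448). Psmd1, the other large scaffold, had 154, 162 and 162 CPM in Gls1_CamkIIaCre libraries, against 156, 152 and 158 CPM in control libraries. Its log2 fold change was 0.037, with a 95% interval of -0.05 to 0.12 (edgeR adjusted p = 0.66). Psmd4, a ubiquitin receptor, was at -0.042 (edgeR adjusted p = 0.675).

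Of the lid genes with Psmd names, Psmd8 fell and 7 did not pass. Shfm1, a lid subunit named otherwise, also fell and is described with the related genes. Psmd8 had 84.0, 85.6 and 87.8 CPM in Gls1_CamkIIaCre libraries, against 98.5, 92.5 and 99.8 CPM in control libraries. The nearest libraries of the groups were 87.8 and 92.5 CPM, and means were 85.8 ± 1.95 CPM in Gls1_CamkIIaCre and 96.9 ± 3.85 CPM in control (SD, n = 3 each). Psmd8 fell by 0.18 on the log2 scale, with the smallest adjusted p of the 45 genes (SE 0.0465, edgeR adjusted p = 0.0235). Psmd11 lay on the other side, with 59.2, 60.6 and 58.1 CPM in Gls1_CamkIIaCre libraries and 53.2, 54.7 and 57.6 CPM in control libraries. Its Gls1_CamkIIaCre libraries were all higher, but the log2 fold change of 0.10 did not pass (SE 0.0523, edgeR adjusted p = 0.252). Psmd3 had 100, 101 and 99.1 CPM in Gls1_CamkIIaCre libraries, against 107, 103 and 106 CPM in control libraries, with a log2 fold change of -0.074 (edgeR adjusted p = 0.326). Psmd14, the lid's deubiquitinase, was at 0.012 (edgeR adjusted p = 0.924), and Psmd6, Psmd7, Psmd12 and Psmd13 lay between -0.019 and 0.054.

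**Figure D3:**
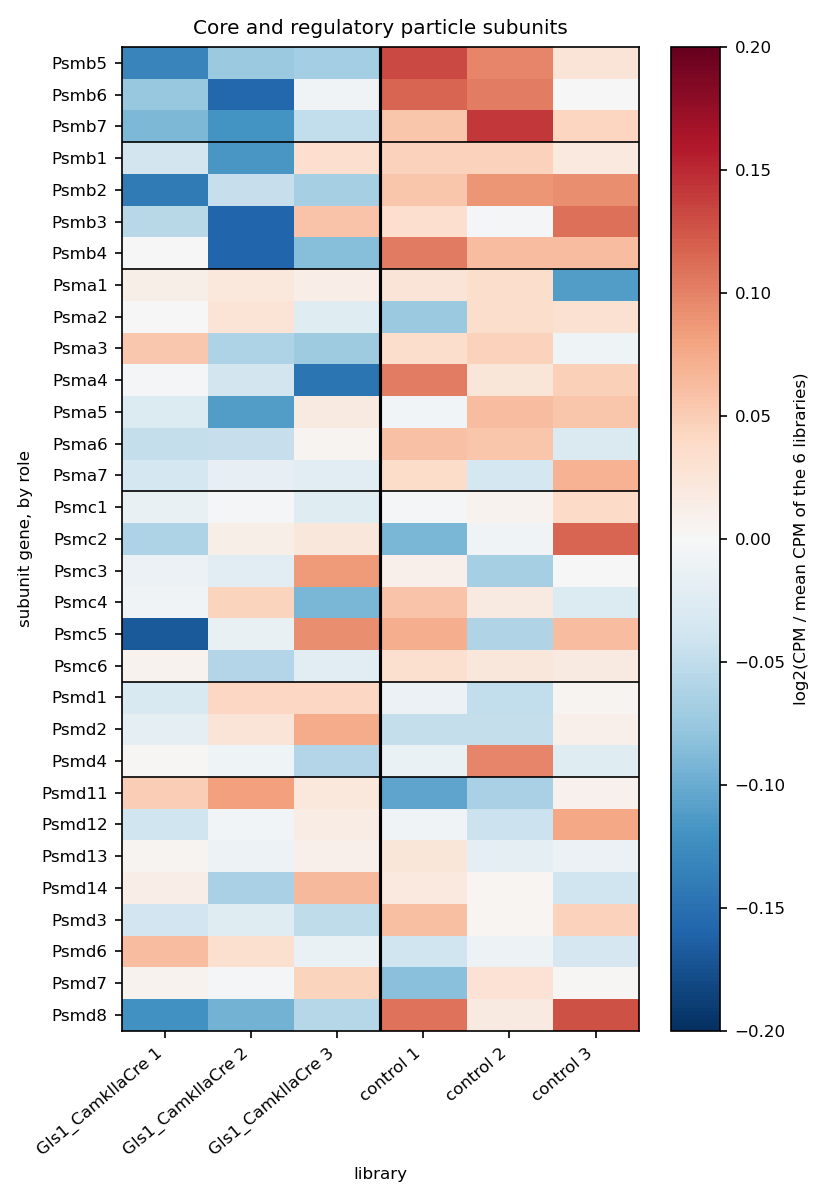
Colour gives log2 of a library's CPM over the mean of the 6 libraries for the 31 core and regulatory particle subunits (rows) in the Gls1_CamkIIaCre and control libraries (columns), red above the mean and blue below. The beta ring at the top and Psmd8 at the bottom are blue to pale in Gls1_CamkIIaCre and pale to red in control. Psmb1 and Psmb3 of Gls1_CamkIIaCre 3 are exceptions, at 107 and 45.3 CPM. Psma4, Psmc6 and Psmd3 show the same split more faintly, and Psmd11 shows the opposite split. The remaining alpha, ATPase, base and lid rows are mixed.

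The 17 regulatory particle subunits summed to 1682, 1711 and 1736 CPM in Gls1_CamkIIaCre libraries, against 1712, 1695 and 1743 CPM in control libraries, so that the ranges overlapped. The 31 core and regulatory particle subunits with Psm names summed to 2704, 2707 and 2761 CPM in Gls1_CamkIIaCre libraries. Their sums in control libraries were 2800, 2785 and 2811 CPM. The log2 ratio was -0.039, and the deposited FPKM values gave -0.089. The FPKM of all genes also summed lower, to 238924 to 243144 in Gls1_CamkIIaCre libraries against 249602 to 252272 in control libraries.

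The assembly chaperones build the particle and leave it. Psmd5, Psmd9 and Psmd10 hold the ATPases during assembly. Psmd5 had 45.6, 50 and 47.9 CPM in Gls1_CamkIIaCre libraries, against 44.5, 45.4 and 43.1 CPM in control libraries. The groups did not overlap, with a log2 fold change of 0.11 that did not pass (SE 0.0566, edgeR adjusted p = 0.269). Psmd9 had 22.6, 23.3 and 26.0 CPM in Gls1_CamkIIaCre libraries, against 23.9, 22.2 and 22.0 CPM in control libraries, and overlapped (log2 fold change 0.080, edgeR adjusted p = 0.6). Psmd10 was at 0.066. Psmg1 to Psmg4 assemble the alpha ring. Psmg3 had 6.96, 6.74 and 7.38 CPM in Gls1_CamkIIaCre libraries, against 7.25, 6.60 and 8.93 CPM in control libraries (log2 fold change -0.11, edgeR adjusted p = 0.7). Psmg1 had 10.8, 10.6 and 9.12 CPM in Gls1_CamkIIaCre libraries and 11.6, 9.90 and 10.7 CPM in control libraries (log2 fold change -0.076, edgeR adjusted p = 0.753). Both overlapped, and Psmg4 and Psmg2 were at -0.063 and 0.054. None of these 7 chaperones was called by edgeR, DESeq2 or limma voom, and none had an unadjusted edgeR p under 0.05.

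Some cores carry another cap in place of the regulatory particle. None of the 5 cap genes was called by the 3 tools, and 2, Psme4 and Psme2, had an unadjusted edgeR p under 0.05, in opposite directions. Psme4, a single-chain nuclear activator, had 97.6, 97.4 and 90 CPM in Gls1_CamkIIaCre libraries, against 91.2, 84.4 and 86.1 CPM in control libraries. Gls1_CamkIIaCre 3 lay below control 1, and the log2 fold change was 0.12 (SE 0.0488, edgeR adjusted p = 0.129). Psme2, part of the interferon-induced cap with Psme1, had 13.7, 11.6 and 12.9 CPM in Gls1_CamkIIaCre libraries, against 17.2, 13.9 and 14.4 CPM in control libraries. The groups did not overlap, and the log2 fold change was -0.25 (SE 0.104, 95% interval -0.47 to -0.03, edgeR adjusted p = 0.149). Psme1 was at -0.043, Psme3, which forms a nuclear cap of its own, at 0.072, and Psme2b at -0.23 (edgeR adjusted p = 0.788, 0.337 and 0.522). Psme2 and Psme2b are near-identical copies, so their values depend on how shared reads were counted. Psmf1, a proteasome-binding regulator that inhibits the core in the test tube, had 34.8, 33.6 and 35.3 CPM in Gls1_CamkIIaCre libraries, against 33.5, 29.6 and 32.6 CPM in control libraries. The nearest libraries were 33.6 and 33.5 CPM, with a log2 fold change of 0.12 and no call by any of the 3 tools (SE 0.0656, edgeR adjusted p = 0.317). Psmc3ip had 1.55, 1.73 and 1.85 CPM in Gls1_CamkIIaCre libraries and 1.79, 1.78 and 1.83 CPM in control libraries, too few counts for a narrow interval (log2 fold change -0.074, 95% interval -0.60 to 0.45, edgeR adjusted p = 0.906).

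Over all 45 tested genes, 10 had every Gls1_CamkIIaCre library below every control library, which is 22.2% of them against 13.6% of all tested genes. Another 4 had every Gls1_CamkIIaCre library above, which is 8.89% against 13.1% of all tested genes. These were Psmd11, Psmd5, Psme3 and Psmf1. The 10 were Psmb2, Psmb4, Psmb5, Psmb6, Psmb7, Psma4, Psmc6, Psmd3, Psmd8 and Psme2, so 5 of the 10 belong to the beta ring.

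Levels per transcript length were read from FPKM. The 31 core and regulatory particle subunits spanned 16.3 FPKM (Psma3) to 119 FPKM (Psmb4) over the 6 libraries, a 7.27-fold range, with a median of 46.4 FPKM. This range depends on the gene lengths behind the FPKM. Psma3 averaged 78.3 CPM in Gls1_CamkIIaCre and 81 CPM in control, near Psma1 at 78.5 and 76.9 CPM. The lengths implied by counts and FPKM were 4846 bases for Psma3, 1673 for Psma1 and 824 for Psmb4. The 3 highest were beta ring genes, Psmb4 at 119, Psmb5 at 86 and Psmb1 at 81.2 FPKM, and the lowest of that ring was Psmb2 at 59.5 FPKM. The alpha ring lay between 16.3 and 62.3 FPKM, and the ATPases between 36.3 (Psmc4) and 73.6 FPKM (Psmc5). The lid genes with Psmd names lay between 16.7 (Psmd11) and 51.6 FPKM (Psmd8). Psmd8 was thus the highest of the lid genes with Psmd names, and Psmb4 and Psmb5 were the highest of their groups. Shfm1, a lid subunit named otherwise, averaged 72.6 FPKM over the 6 libraries. Chaperones and caps had lower medians, 7.79 FPKM over Psmd5, Psmd9 and Psmd10, 8.69 FPKM over Psmg1 to Psmg4 and 8.85 FPKM over the caps, against the 46.4 FPKM of the subunits. They lay at 6.53 to 17.8 FPKM for Psmd5, Psmd9 and Psmd10, at 7.43 to 13.4 FPKM for Psmg1 to Psmg4, and at 3.00 to 31.1 FPKM for the caps, with Psme3 the highest. On this scale Psmb5 averaged 79.3 ± 3.92 FPKM in Gls1_CamkIIaCre and 92.7 ± 4.76 FPKM in control (SD, n = 3 each). Psmb4 averaged 111 ± 5.27 FPKM in Gls1_CamkIIaCre and 126 ± 2.88 FPKM in control (SD, n = 3 each).

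**Figure D4:**
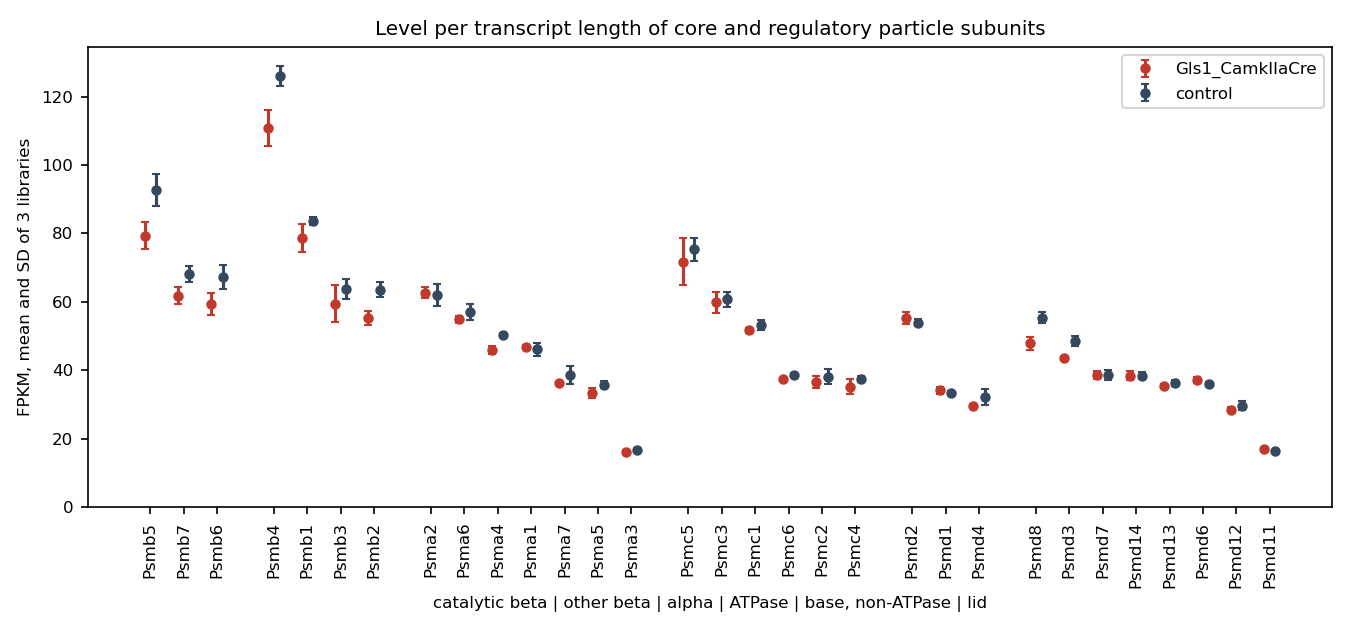
FPKM of the 31 core and regulatory particle subunits is plotted by role, as mean and SD of 3 libraries, Gls1_CamkIIaCre left of control for each gene. The beta ring holds the highest gene, Psmb4, at 111 FPKM in Gls1_CamkIIaCre against 126 FPKM in control, and the widest gaps between the groups.

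Proteasome transcripts are short, and in these libraries fold changes followed transcript length across all genes. The 45 proteasome genes had a median longest transcript of 1819 bases, against 3489 bases over all tested genes, and the core ring genes one of 1220 bases. In the shortest eighth of all genes (88 to 1669 bases), which held 22 of the 45, the median log2 fold change of all genes was -0.088, and in the longest eighth it was 0.062. Across the 45 genes log2 fold change and length had a Spearman rho of 0.586, and across 14337 genes one of 0.256, both descriptions over genes of the same 6 libraries. With offsets for length and GC content in the fit, no proteasome gene passed, against 2.5% of genes that fell in that fit. The median of the 45 turned to 0.039, against 0.021 over all genes. Psmb7, the longest of the beta ring at 2849 bases, was then at -0.12 (edgeR adjusted p = 0.12), Psmd8 at -0.11 (0.191), Psmb5 at -0.066 (0.492) and Psmb4 at -0.054 (0.567). Over all genes, 7333 of 14440 were below 0 before the correction and 6224 of 14337 after it. Of the 45 genes, 14 were below 0 after the correction, against 28 before it. These 14 held all 7 beta ring genes, between -0.12 and -0.01 with a median of -0.045. The regulatory particle subunits had a median of 0.061 after the correction, against -0.017 before it. The longest annotated transcript is not always the one expressed: Psmb7 had a length of 1702 bases as implied by its counts and FPKM, and Psmb3 one of 702 bases, against 1509 bases annotated. With the implied length in place of the longest transcript no proteasome gene was called either, against 2.4% of genes that fell. The beta ring then lay between -0.079 (Psmb7) and 0.041 (Psmb3) with a median of -0.036, and Psmd8 was at -0.095 (edgeR adjusted p = 0.269).

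**Figure D5:**
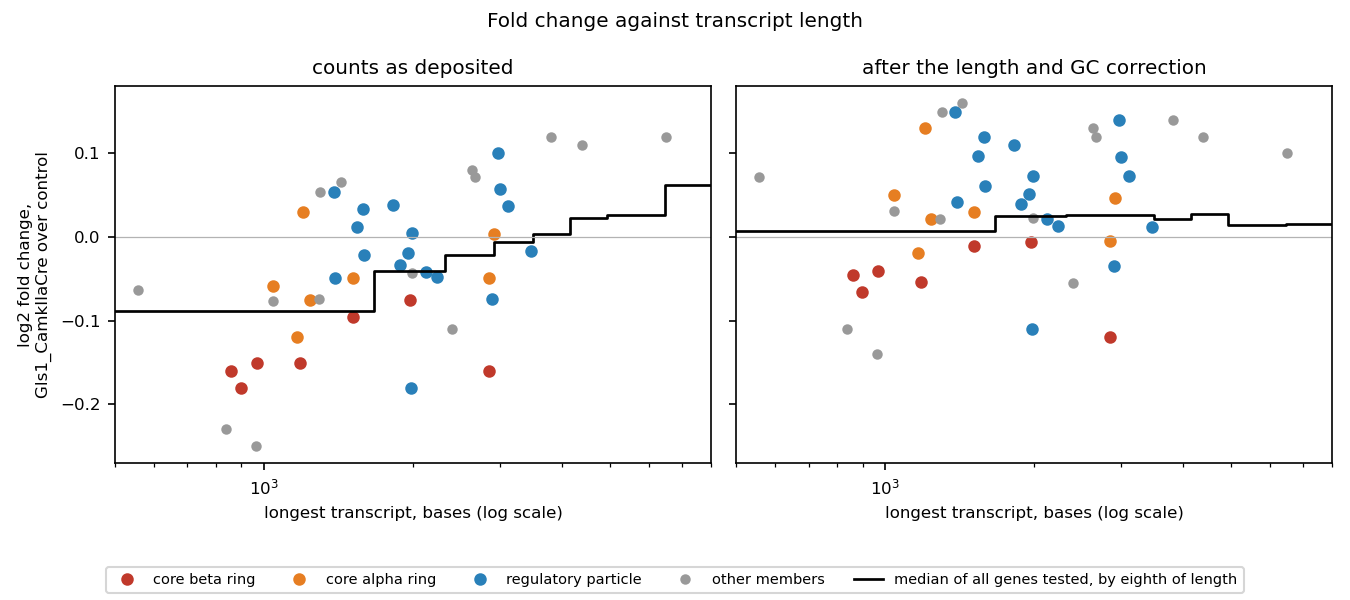
Log2 fold change, Gls1_CamkIIaCre over control, is plotted against the longest transcript (log axis) for the proteasome genes, before (left) and after (right) the length and GC correction, with a line for the median of all genes in each eighth of length. Before it, most core ring genes lie at the short end near or under the line, which starts at -0.088, and after it the line is near 0 and all beta ring genes are below it.

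These calls also changed when single libraries were left out, in fits that then had fewer samples. Without control 1 edgeR called no proteasome gene, where 3.06% of all genes fell, and none without Gls1_CamkIIaCre 2, where 1.49% fell. Without control 2 only Psmd8 was called (2.4% of all genes fell), and without Gls1_CamkIIaCre 1 only Psmb4 (2.71%). Without control 3 the called genes were Psmb5, Psmb6 and Psmb7 (3.72%), and without Gls1_CamkIIaCre 3 they were Psmb7 and Psmd8 (3%). Log2 fold changes stayed below 0 in these fits, from -0.21 to -0.15 for Psmb5 and -0.18 to -0.13 for Psmb7. They ran from -0.20 to -0.12 for Psmb4 and from -0.21 to -0.15 for Psmd8. Over the same fits the edgeR adjusted p ranged from 0.0248 to 0.139 for Psmb5, 0.0254 to 0.166 for Psmb7, 0.0336 to 0.238 for Psmb4 and 0.0278 to 0.0913 for Psmd8.

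Genes that act with the proteasome but are named otherwise were read from the same fit. Pomp, the maturation factor that helps the beta ring assemble on the alpha ring and is then the first protein the core degrades, differed more than any proteasome gene above. It had 74.5, 72.6 and 71.2 CPM in Gls1_CamkIIaCre libraries, against 92.7, 89.0 and 85.1 CPM in control libraries. The groups were over 10 CPM apart, and Pomp fell by 0.29 on the log2 scale, or by 18.2% (SE 0.0482, edgeR adjusted p = 0.00104). Its longest annotated transcript, 3850 bases, is far above the 787 bases that its counts and FPKM imply. The length and GC correction with the annotated length gave -0.27 (edgeR adjusted p = 0.00203). With the implied length Pomp was at -0.16 (edgeR adjusted p = 0.0426). On the counts as deposited it was called without each library in turn (edgeR adjusted p from 0.000811 to 0.0139). The other 3 genes of its list, Akirin2, Fbxo7 and AI314180, did not pass.

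Among 10 genes of substrate delivery, Shfm1 fell. It encodes the smallest lid subunit, and had 34.4, 30.0 and 29.8 CPM in Gls1_CamkIIaCre libraries, against 40.5, 36.0 and 35.2 CPM in control libraries. Gls1_CamkIIaCre 1 came within 1 CPM of control 3, and the log2 fold change was -0.25 (SE 0.0722, edgeR adjusted p = 0.039). After the length and GC correction it was -0.19 (edgeR adjusted p = 0.126), and with the implied length of 471 bases -0.081 (edgeR adjusted p = 0.536). It was not called by DESeq2 or limma voom (adjusted p = 0.0789 and 0.0577), nor by edgeR without robust estimation (0.0552), and the call was lost without control 1, control 2, Gls1_CamkIIaCre 2 or Gls1_CamkIIaCre 3 (edgeR adjusted p = 0.199, 0.071, 0.177 and 0.126). The ubiquitin receptor Adrm1 was at -0.061 (edgeR adjusted p = 0.632). Of 6 ubiquitin enzymes and partners that bind the proteasome, Ube3a rose and Txnl1 fell. Ube3a, the ubiquitin ligase lost in Angelman syndrome, had 116, 107 and 115 CPM in Gls1_CamkIIaCre libraries, against 90.9, 102 and 99.8 CPM in control libraries. The groups did not overlap (log2 fold change of 0.21 with SE 0.0503, edgeR adjusted p = 0.0128). Its call was lost without control 1 (0.0769) or Gls1_CamkIIaCre 1 (0.0644). Txnl1, a thioredoxin of the regulatory particle, had 70, 72.6 and 74.6 CPM in Gls1_CamkIIaCre libraries, against 80.7, 78.7 and 83.6 CPM in control libraries (log2 fold change -0.16, edgeR adjusted p = 0.0421). Its groups did not overlap, but it passed in 1 of the 6 fits without a library, the one without Gls1_CamkIIaCre 3, and its edgeR adjusted p over the 6 was 0.0457 to 0.156. After the length and GC correction it was at -0.15 (edgeR adjusted p = 0.0785), and with the implied length at -0.11 (0.202). It was not called by DESeq2 or limma voom (adjusted p = 0.0894 and 0.0525), by limma on FPKM, or by edgeR without robust estimation (0.053).

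Of ubiquitin supply, the genes Uba1, Ubb, Rps27a and Uba6 did not pass. Uba1, the main enzyme that activates ubiquitin, had 320, 335 and 321 CPM in Gls1_CamkIIaCre libraries, against 295, 296 and 311 CPM in control libraries. The groups did not overlap, and the log2 fold change of 0.11 lay outside the threshold (SE 0.039, edgeR adjusted p = 0.0813). The polyubiquitin gene Ubb was at 0.010, Rps27a, which makes ubiquitin fused to a ribosomal protein, at -0.13, and another activating enzyme, Uba6, at 0.022 (edgeR adjusted p = 0.91, 0.445 and 0.888).

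The immunoproteasome genes replace the catalytic beta subunits where interferon signals. Psmb8, the counterpart of Psmb5, had 2.89, 3.40 and 2.21 CPM in Gls1_CamkIIaCre libraries, against 7.96, 4.77 and 4.41 CPM in control libraries. Control 1 was the highest library, and Psmb8 fell by 1.02 on the log2 scale (SE 0.231, edgeR adjusted p = 0.0123). Without control 1 it was at -0.70 and did not pass (edgeR adjusted p = 0.0636), nor did it without Gls1_CamkIIaCre 1 (0.0578). On log2(FPKM + 1) and log2(FPKM + 0.1) it did not pass in limma (adjusted p = 0.0643 and 0.0539). Psmb9 and Psmb10, the counterparts of Psmb6 and Psmb7, were at -0.85 and -0.19 (edgeR adjusted p = 0.0829 and 0.303). Their levels were far below those of Psmb5, Psmb6 and Psmb7, at 1.27 to 7.96 FPKM for the 3 immunoproteasome genes against 63.4 to 86.0 FPKM.

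The other 4 related lists had no called gene by edgeR, DESeq2 or limma voom on the counts as deposited. In the list of proteasome gene transcription, 0 of 7 passed and 0 had an unadjusted edgeR p under 0.05. Nfe2l1, the factor that raises proteasome genes when the proteasome is blocked, averaged 389 ± 11.7 CPM in Gls1_CamkIIaCre and 386 ± 12.3 CPM in control (SD, n = 3 each, edgeR adjusted p = 0.906). The smallest p values there were those of Ngly1, which trims Nfe2l1 protein, and Maff, at log2 fold changes of 0.12 and 0.36 (edgeR adjusted p = 0.264 and 0.629). Of 9 genes of the VCP unfoldase, which pulls ubiquitinated proteins out of complexes, 1 had an unadjusted p under 0.05. This was Ubxn1, at -0.14, followed by Ube4b, at 0.088 (edgeR adjusted p = 0.117 and 0.231). The 8 genes of the CCT chaperonin, a protein-folding ring, had a median of 0.010, and 1 of them, Cct4, had an unadjusted p under 0.05. Cct4 and Cct2 were at 0.12 and 0.071 (edgeR adjusted p = 0.142 and 0.347). Cct4 was at 0.18 and was called after the length and GC correction (edgeR adjusted p = 0.043), and with the implied length it was at 0.19 (0.0308). The 9 genes of the COP9 signalosome, a complex built like the proteasome lid, had a median of -0.011 and none with an unadjusted p under 0.05. Cops6 and Cops2 were at -0.081 and 0.073 (edgeR adjusted p = 0.358 and 0.422).

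Depth was even, at 17987807 to 19265382 counts in Gls1_CamkIIaCre libraries and 18665024 to 19330961 in control libraries, while the summed FPKM was 238924 to 243144 in Gls1_CamkIIaCre and 249602 to 252272 in control. Of all 14440 tested genes 571 rose and 619 fell. That split was 429 and 749 with upper-quartile factors, 122 and 550 on log2(FPKM + 1), and 126 and 607 on log2(FPKM + 0.1). Markers of cortical excitatory neurons summed to 6228 to 6966 CPM in Gls1_CamkIIaCre and 6119 to 6472 CPM in control. All 8 of them were tested, and Fezf2 was the 1 called higher. Markers of striatal neurons, cells of a neighbouring region, summed to 278 to 310 CPM in Gls1_CamkIIaCre and 671 to 1101 CPM in control. Of these, 10 of 12 were called lower. Astrocyte markers summed to 1962 to 1993 CPM in Gls1_CamkIIaCre and 2087 to 2120 CPM in control, with 4 of 8 called lower. Oligodendrocyte markers summed to 3070 to 3522 CPM in Gls1_CamkIIaCre and 3374 to 3999 CPM in control, with 3 of 8 called lower. Microglial markers summed to 437 to 467 CPM in Gls1_CamkIIaCre and 468 to 519 CPM in control, with 2 of 8 called lower. Endothelial markers summed to 252 to 268 CPM in Gls1_CamkIIaCre and 259 to 292 CPM in control, with 1 of 8 called lower. Erythrocyte markers summed to 58.0 to 75.6 CPM in Gls1_CamkIIaCre and 76.1 to 90.6 CPM in control, with 2 of 5 called lower. Called or not, all 12 striatal, 8 oligodendrocyte, 8 endothelial and 5 erythrocyte markers had a log2 fold change below 0. The endothelial median was -0.04. Below 0 were also 7 of 8 astrocyte, 7 of 8 microglial and 3 of 8 excitatory neuron markers. No marker was at 0 in any library. The part of these cell types in the proteasome values was not tested, and in bulk tissue fewer cells of a type and less RNA per cell cannot be told apart.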

How the data were processed

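Per the labels' protocols, TRIzol-extracted RNA of unsorted prefrontal cortex (3 Gls1_CamkIIaCre and 3 control mice) was sequenced from SMARTer mRNA-Seq libraries. The files deposited by the authors hold whole-number counts and, for the same 21878 genes, FPKM, which are scaled for gene length and library depth. Per the submitters' processing notes the build was GRCm38 (mm10). Aligner, counter and strand setting were not given in the sources used here. If strand was not used, overlapping genes share reads, which touches Psma4, Psmc3ip, Psmd1, Psmd10, Psme1, Psme2b, Psme4 and Psmf1.

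Counts were tested in edgeR 4.0.16 (R 4.3.3) with TMM factors, filterByExpr and the robust quasi-likelihood test, Gls1_CamkIIaCre over control, no covariate. Adjusted p-values are Benjamini-Hochberg over 14440 genes, with a threshold of 0.05. The common biological coefficient of variation was 4.75%. Tested on simulated counts of those 14440 genes for this comparison, the fit called 42% of genes changed 1.2-fold, 77% of those changed 1.5-fold and 0.0351% of unchanged genes. Replicate libraries varied beyond counting noise (chi-square per degree of freedom 2.27 to 4.14), and the series text counts 3 mice per group.

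Alternatives were DESeq2 1.42.0, limma 3.58.1 (voom, log2(FPKM + 1) and log2(FPKM + 0.1)), DESeq2 size factors, upper-quartile factors, other count filters, no robust estimation, other thresholds, a replicate block, leaving out each library, and splines (4 degrees of freedom) of length and GC of the longest GENCODE M21 transcript as offsets, which 99.3% of tested genes had. Added after seeing the data was the same correction with the length implied by a gene's counts, FPKM and library total (median over libraries), which has a common factor that the fit does not read. Coordinates and promoters are RefSeq's.

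Members and gene lists were chosen with earlier results of these data known. Values per library are given for every called proteasome gene and otherwise for the 2 of smallest p in each role, and for every called gene of the related lists; where a related list had no call, the 2 genes of smallest p are mostly given by fold change and adjusted p alone; Psmb2, Psmb6, Psmd3, Nfe2l1 and the other genes of these lists were named after their values were seen. The level of the floxed gene and some genes of the related lists are not reported here, so counts over those lists cover the genes reported.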

Additional observations from a re-analysis of the deposited data

How the results depend on the processing

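The 4 called proteasome genes, Psmb4, Psmb5, Psmb7 and Psmd8, had a negative fold change in every alternative run, but their calls depended on it. The number called was 1 by DESeq2, 0 after the length and GC correction with either length, 0 at a threshold of 0.01, 0 to 3 without single libraries, and 3 to 6 in the other alternatives. The count over all genes was 672 on log2(FPKM + 1), 733 on log2(FPKM + 0.1), 402 at a threshold of 0.01 and 1862 at 0.1, and 415 (without Gls1_CamkIIaCre 2) to 1098 (without control 3) without single libraries; it was 635 without control 2, 763 without control 1 and 778 without Gls1_CamkIIaCre 1. For the related genes reported here, 5 calls became 3 by DESeq2, limma voom or edgeR without robust estimation, 1 at a threshold of 0.01 and 1 to 5 without single libraries: 1 without control 1, 2 without Gls1_CamkIIaCre 1 and 3 without Gls1_CamkIIaCre 2. The median log2 fold change of the proteasome genes, -0.043, was -0.060 with upper-quartile factors, -0.056 on log2(FPKM + 1), -0.059 on log2(FPKM + 0.1), 0.039 after the length and GC correction, 0.041 with the implied length, and -0.038 to -0.026 without single libraries. The summed level of the 31 subunits, -0.039, was -0.089 in FPKM and -0.049 to -0.034 without single libraries; this, the implied length and the lists' thresholds were chosen after seeing the data.

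After the length and GC correction 14 of the 45 proteasome genes turned to above 0, and with the implied length 17 did. Among those given by library, values after the correction and with the implied length were 0.022 and 0.018 for Psma5, 0.021 and 0.0034 for Psmc3ip, 0.013 and 0.018 for Psmc6, and 0.031 and 0.030 for Psmg1. With the implied length Psmg3 turned to 0.0042 and Cops6 to 0.017. Psmc3 turned to -0.017 on log2(FPKM + 1) and -0.018 on log2(FPKM + 0.1), and Psmg3 to 0.022 without control 3, the highest of a range that began at -0.20. Beyond fewer samples in fits without a library, the cause was not tested. DESeq2, limma voom, DESeq2 size factors, the count filters, the replicate block and edgeR without robust estimation turned the sign of no proteasome gene. Upper-quartile factors, limma on FPKM and the fits without a library each turned that of 1 to 6. Same-numbered libraries deviated together with r of 0.139, -0.0263 and 0.140. These values give little sign of pairing by number but cannot show that the samples were unpaired. With a replicate block, 5 proteasome genes and 1758 of all genes were called, against 4 and 1190 without it. In simulated data with 3 libraries a group, 42% of genes changed 1.2-fold were called. Those genes were drawn from all tested genes at any count level, so this share is not a rate for the proteasome genes. The proteasome differences were smaller than 1.2-fold, and the 4 called genes had standard errors of 0.0452 (Psmb7) to 0.0506 (Psmb5).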
